A study of Mus musculus with 4 samples.

Results

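The genes described here are 36 genes of absorptive enterocytes and of epithelial structure, of 25239 genes in the deposited count table. They were chosen by name, as genes for lipid handling, brush border enzymes, nutrient transporters, keratins and villin, cell adhesion and enterocyte transcription factors, and because epithelial markers differ widely between the replicates. The spread of the members between libraries was thus used to choose them, and it is given as a description. The 4 RNA-seq libraries hold NKT cells, which are T cells with receptors for lipids on CD1d, sorted from the small intestinal lamina propria (SI-LP) of WT mice. All 4 belong to 1 condition, with genotype C57BL/6Jax. Replicates 3 and 4 are labelled as the first experiment, and replicates 1 and 2 as the second. Per the study's methods, mice were young adults of either sex that received a nanobody against ARTC2 shortly before tissue collection, lymphocytes were enriched on Percoll, and live TCR-β+ cells binding the CD1d tetramer were sorted without B220, CD11b, CD11c or CD8. The stated gate names no epithelial surface marker, and whether a library came from 1 mouse or from a pool is not given in the sources used here.

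Enterocytes are the absorptive cells that line the villi, above the lamina propria. They cleave sugars and peptides with enzymes of the brush border, take up the products through transporters, and re-esterify dietary fat that leaves the cell on chylomicrons, particles built on apolipoprotein B. Keratins, cadherins and claudins hold these cells together in a sheet, and CDX and HNF4 transcription factors maintain their program. Cadherins, claudins, EpCAM and keratins are shared by most cells of the intestinal epithelium, whereas digestive enzymes and apolipoproteins mark the absorptive lineage.

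Total counts were 7233071, 8732858, 5487147 and 3882803 in replicates 1 to 4, and the ribosomal precursor *Rn45s* took 7.36% to 28.1% of them. Levels are given as CPM, counts divided by the library size in units of 1000000 counts, with TMM factors, for which 3 counts correspond to 0.287 to 0.753 CPM. The T cell receptor component *Cd3e* was detected in each library at 616 to 2085 CPM, while *Cd8a* stayed at or below 1.15 CPM. Replicate 4 stood apart from the others in its markers of Paneth cells, the antimicrobial cells of the crypt base, which took 3.76% of its counts and at most 0.0670% in the other libraries.

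Counts on the 36 members made up 0.138% (95% Wilson interval 0.135% to 0.140%) of replicate 1 and 0.744% (0.738% to 0.750%) of replicate 2. They made up 0.0781% (0.0758% to 0.0805%) of replicate 3 and 0.850% (0.841% to 0.860%) of replicate 4. The mean was 0.453% ± 0.401 (SD, n = 4), or 0.320% without replicate 4. Replicates 2 and 4, which belong to different experiments, thus held more of these counts than their partners. Intervals cover counting error only, since PCR copies without molecular identifiers are not independent molecules, and in bulk RNA fewer cells of a type and less RNA per cell cannot be told apart.

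Markers of T cells moved the other way, with 0.479%, 0.186%, 0.526% and 0.252% of counts on 10 genes in replicates 1 to 4. *Cd3e* stood at 1835 CPM in replicate 1, 616 in replicate 2, 2085 in replicate 3 and 855 in replicate 4. The ratio of member counts without *Dgat1* to T cell marker counts was 0.195 (95% exact interval 0.190 to 0.201) in replicate 1 and 3.87 (3.80 to 3.93) in replicate 2. It was 0.0639 (0.0609 to 0.0670) in replicate 3 and 3.32 (3.25 to 3.40) in replicate 4. The part of T cell RNA content in the members' shares was not tested.

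**Figure D1:**
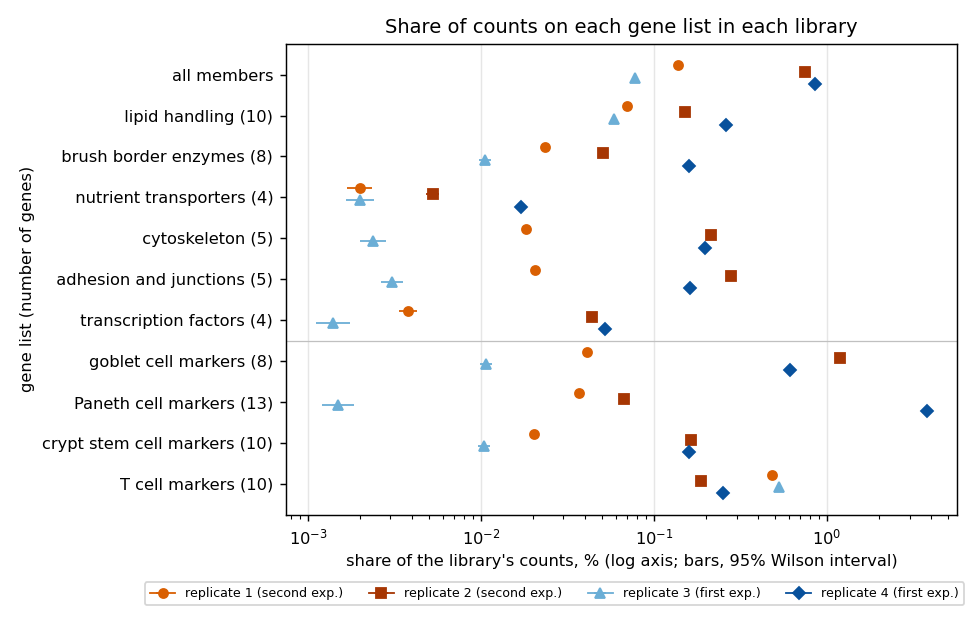
Share of each library's counts (%, log axis) on the 36 members, on their 6 roles and on marker lists of other cells. Each point is 1 library and bars are 95% Wilson intervals. Replicates 2 and 4 lie to the right of replicates 1 and 3 for the members, and to their left for the T cell markers. Replicate 4 alone reaches 3.76% on Paneth cell markers.

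Of the 10 genes of lipid handling, fatty acid-binding proteins carry long-chain fatty acids through the cytosol. Gene positions are on GRCm38, as deposited, and lists of 4 values run from replicate 1 to replicate 4. *Fabp2*, the intestinal form (chromosome 3, 122895072 to 122899506), was at 39.5, 630.3, 39.5 and 550.5 CPM in replicates 1 to 4. *Fabp1*, the form shared with liver (chromosome 6, 71199879 to 71205034), was at 21.9, 3.45, 11.6 and 66.7 CPM. Thus *Fabp2* was 16.0-fold higher (95% exact interval 14.2 to 18.0) in replicate 2 than in replicate 1, while *Fabp1* was lower, at 0.157 times (0.106 to 0.227). In the first experiment both were higher in replicate 4 than in replicate 3, 13.9-fold (95% exact interval 11.9 to 16.3) for *Fabp2* and 5.75-fold (95% exact interval 4.26 to 7.90) for *Fabp1*. Counts of *Fabp2* over those of *Fabp1* were 1.80 (1.48 to 2.21), 183 (132 to 261), 3.40 (2.49 to 4.73) and 8.25 (7.26 to 9.40) in replicates 1 to 4, so the balance of the 2 genes was not constant. *Rbp2*, the retinol-binding protein of enterocytes (chromosome 9, 98490537 to 98509771), was at 4.99, 4.79, 19.9 and 132 CPM. The second experiment held little of it, and replicate 4 held the most.

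The promoters of these 3 genes are shown with those of *Sis*, *Epcam* and *Krt20*, since they contrast absorptive genes that parted in replicate 2 (*Fabp1* and *Fabp2*) with an epithelial structure gene that was high there (*Epcam*). They were picked after values were seen. Each is the 120 bases that end just before the transcription start, 5′ to 3′ on the gene's strand, from RefSeq (GRCm38.p6). Capitals mark matches, on either strand, to TATAAA (the box near many starts named for its first letters), TTTATNG (bound by CDX factors), CAAAGTCC (HNF4), GTTAAT (the start of the HNF1 motif) and AGATAA (factors of the GATA family). The TATA and CDX letters can overlap, as in CTATAAA.
Fabp1 (chr6:71199759-71199878, plus strand): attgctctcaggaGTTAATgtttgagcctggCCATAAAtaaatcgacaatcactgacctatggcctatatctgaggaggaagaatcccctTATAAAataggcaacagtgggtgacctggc
Fabp2 (chr3:122894952-122895071, plus strand): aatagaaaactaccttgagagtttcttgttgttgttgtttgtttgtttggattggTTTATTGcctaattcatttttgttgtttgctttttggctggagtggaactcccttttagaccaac
Rbp2 (chr9:98490417-98490536, plus strand): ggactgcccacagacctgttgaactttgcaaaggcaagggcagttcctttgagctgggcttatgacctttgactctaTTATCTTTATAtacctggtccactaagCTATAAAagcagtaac
Sis (chr3:72967864-72967983, minus strand): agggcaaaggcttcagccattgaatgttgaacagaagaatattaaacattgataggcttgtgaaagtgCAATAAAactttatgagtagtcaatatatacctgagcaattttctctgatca
Epcam (chr17:87635859-87635978, plus strand): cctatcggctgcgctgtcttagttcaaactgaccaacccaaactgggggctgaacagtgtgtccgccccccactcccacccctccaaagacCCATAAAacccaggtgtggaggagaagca
Krt20 (chr11:99438154-99438273, minus strand): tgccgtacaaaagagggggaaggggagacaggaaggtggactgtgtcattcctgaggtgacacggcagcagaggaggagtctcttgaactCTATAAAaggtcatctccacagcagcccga

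Of the 8 members with the CDX letters before their start, these 6 are shown, so that each window holds them follows from the choice and is no finding. The letters stood at 89 bases before the start in *Fabp1*, 65 in *Fabp2*, 16 in *Rbp2*, 52 in *Sis*, 29 in *Epcam* and 30 in *Krt20*. Over the 250 bases before the start, 27 of the 36 members had 29 promoters in the table, which holds 32851 promoters in all. The CDX letters stood in 27.6% of the members' promoters and in 9.81% of all, the TATA letters in 24.1% and 12.4%, and the HNF4 letters in 10.3% (*Alpi*, *Rbp2* and *Treh*) and 1.20%. GATA letters stood in 17.2% and 9.99%, and HNF1 letters in 13.8% and 6.43%. Absorptive members, here those of the lipid, enzyme and transporter groups, had a median of 3 CpG dinucleotides over 18 promoters. Structural members, the cytoskeleton and adhesion groups, had a median of 7 over 8 promoters, and all promoters a median of 6. A match describes letters only. *Apoc3*, *Dgat1*, *Dgat2*, *Mep1b*, *Krt19*, *Cdh1*, *Cdh17*, *Cdx1* and *Hnf4g* had no entry.

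Apolipoproteins coat the lipid particles that leave the enterocyte. *Apoa1*, the main protein of high-density lipoprotein (chromosome 9, 46228630 to 46230469), was at 25.8, 22.0, 40.6 and 734 CPM in replicates 1 to 4. *Apoa4*, a chylomicron protein (chromosome 9, 46240844 to 46243458), was at 10.9, 2.01, 15.6 and 304 CPM. *Apoc3*, an inhibitor of lipoprotein lipase (chromosome 9, 46233050 to 46235636), was at 0, 0.383, 2.68 and 15.8 CPM. These 3 genes are neighbors, with 2580 bases between *Apoa1* and *Apoc3*, 5207 between *Apoc3* and *Apoa4*, and no other annotated gene between them. For each of them both libraries of the first experiment lay above both of the second, and replicate 4 was highest. *Apoa1* was 18.1-fold (95% exact interval 15.5 to 21.1) higher in replicate 4 than in replicate 3, and 0.855 times as high (0.701 to 1.04) in replicate 2 as in replicate 1, an interval that holds equality. *Apoa4* was 19.4-fold (95% exact interval 15.3 to 25.1) higher in replicate 4 than in replicate 3, and 0.184 times as high (0.108 to 0.300) in replicate 2 as in replicate 1.

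*Apob*, the scaffold of the chylomicron (chromosome 12, 7977677 to 8016839), followed another order, with 119, 312, 31.0 and 468 CPM in replicates 1 to 4. *Mttp*, which loads lipid onto apolipoprotein B (chromosome 3, 138089855 to 138143418), was at 36, 78.9, 9.82 and 150.3 CPM. Replicate 3 was lowest for both genes, and replicates 2 and 4 lay above replicates 1 and 3. The enzymes DGAT1 and DGAT2 catalyze the last step of triglyceride synthesis, and DGAT1 acts in many tissues. *Dgat2* (chromosome 7, 99153663 to 99182713) was at 0, 0.862, 2.90 and 16.3 CPM. *Dgat1* (chromosome 15, 76502012 to 76511994) was at 441, 204, 546 and 119 CPM. *Dgat1* was the exception among the members: it was highest in replicate 3 and lowest in replicate 4, where it was 0.218 times as high (0.198 to 0.241), and it was lower in replicate 2 than in replicate 1, at 0.462 times (0.437 to 0.488). The T cell markers shared these directions, with median log2 differences of -1.42 from replicate 3 to 4 and -1.11 from replicate 1 to 2, against -2.19 and -1.11 for *Dgat1*. Their part in the level of *Dgat1* was not tested.

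The 8 brush border enzymes comprise disaccharidases, peptidases and a phosphatase. *Sis*, sucrase-isomaltase (chromosome 3, 72888557 to 72967863), was at 80.9, 267, 50.7 and 324 CPM in replicates 1 to 4. *Lct*, lactase (chromosome 1, 128284756 to 128328318), was at 11.6, 0, 10.9 and 55.7 CPM. The disaccharidases parted in replicate 2, where *Sis* had 2791 counts and *Lct* had 0. *Treh*, trehalase (chromosome 9, 44673233 to 44686305), was at 0, 0, 0 and 13.5 CPM. It had counts in replicate 4 alone, at least 20.2-fold above the level of 3 counts in replicate 3, and it did not pass the filter for testing. *Alpi*, the intestinal alkaline phosphatase that detoxifies bacterial lipopolysaccharide (chromosome 1, 87098002 to 87101606), was at 9.56, 19.6, 5.80 and 87.6 CPM, with replicate 4 far above the rest.

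Peptidases trim dietary peptides at the cell surface. *Anpep*, aminopeptidase N (chromosome 7, 79821803 to 79848210), was at 92.6, 85.2, 55.1 and 889 CPM in replicates 1 to 4. *Enpep*, aminopeptidase A (chromosome 3, 129269177 to 129332749), was at 26.5, 30.1, 4.24 and 83.3 CPM. For both, the interval of replicate 2 over replicate 1 held equality, at 0.921 (0.832 to 1.02) and 1.14 (0.946 to 1.37), while replicate 4 exceeded replicate 3 by 16.1-fold (95% exact interval 14.2 to 18.4) and 19.6-fold (95% exact interval 12.4 to 33.0). The metalloprotease meprin is built from the products of *Mep1a* and *Mep1b*. *Mep1a* (chromosome 17, 43474329 to 43502773) was at 7.48, 0.192, 0.446 and 41.4 CPM. *Mep1b* (chromosome 18, 21072344 to 21100199) was at 5.40, 21.7, 2.46 and 63.2 CPM. The 2 subunit genes moved in opposite directions in the second experiment, with *Mep1a* at 54 counts in replicate 1 and 2 in replicate 2, and *Mep1b* at 39 and 227 counts.

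The 4 nutrient transporters had the lowest mean share of the members' TPM, 0.902% ± 0.388 (SD, n = 4). *Slc5a1*, the sodium-glucose cotransporter SGLT1 (chromosome 5, 33104219 to 33162699), was detected in each library, at 19.1, 36, 18.8 and 105 CPM in replicates 1 to 4. *Slc15a1*, the peptide transporter PEPT1 (chromosome 14, 121459621 to 121505254), was at 0, 0, 5.58 and 53.2 CPM. Counts on *Slc15a1* were thus found in the first experiment alone. *Slc2a2*, the glucose transporter GLUT2 (chromosome 3, 28697903 to 28728360), was at 0.831, 0, 0 and 6.52 CPM. *Slc2a5*, the fructose transporter GLUT5 (chromosome 4, 150119344 to 150144168), was at 0, 7.95, 0 and 1.51 CPM. GLUT5 RNA was highest in replicate 2 rather than in replicate 4, and neither *Slc2a2* nor *Slc2a5* passed the filter. A count of 0 allows up to 0.416, 0.287 and 0.670 CPM in replicates 1, 2 and 3.

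The cytoskeletal members hold villin, which bundles actin in microvilli, and 4 keratins. *Krt19* (chromosome 11, 100140811 to 100145926) had the highest mean level per length of the members, 960.2 ± 1009 TPM (counts per length, scaled to 1000000 in each library; SD, n = 4), and was at 84.7, 929.9, 11.2 and 926 CPM in replicates 1 to 4. *Krt8* (chromosome 15, 101996711 to 102004342) was at 50.3, 303, 4.02 and 369.8 CPM. *Krt18* (chromosome 15, 102028216 to 102032026), its filament partner 23873 bases away, was at 18.7, 205, 0.446 and 144 CPM. Replicates 2 and 4 were close for *Krt19*, and replicate 3 had 2 counts on *Krt18*. *Krt8* counts over *Krt18* counts were 2.69 (2.20 to 3.30) in replicate 1, 1.47 (1.39 to 1.56) in replicate 2 and 2.57 (2.33 to 2.84) in replicate 4, while replicate 3 had 18 and 2 counts. The ratio of replicate 2 thus lay below those of replicates 1 and 4. *Krt20*, a keratin of mature enterocytes and goblet cells (chromosome 11, 99428386 to 99438153), was at 17.3, 54.1, 4.02 and 137 CPM. *Vil1* (chromosome 1, 74409384 to 74435560) was at 12.7, 294, 9.38 and 339.7 CPM. Its exons overlap those of *Usp37* on the other strand and counting ignored strand, so its counts are uncertain.

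Of the 6 roles, adhesion and junction genes had the largest median log2 difference between replicates 2 and 1, 3.94 over 5 genes. *Epcam*, the epithelial cell adhesion molecule (chromosome 17, 87635979 to 87651127), was at 61.0, 661, 6.47 and 441 CPM in replicates 1 to 4. *Cdh1*, E-cadherin (chromosome 8, 106603350 to 106670247), was at 107, 741, 8.93 and 531 CPM. *Cdh17*, the cadherin of intestinal epithelium (chromosome 4, 11758157 to 11817905), was at 25.1, 697, 18.3 and 389.9 CPM. Each of the 3 was highest in replicate 2, unlike most members. The claudins *Cldn3* and *Cldn7* seal or shape tight junctions and lateral contacts. *Cldn3* (chromosome 5, 134986214 to 134987476) was at 3.60, 99.6, 0.670 and 68.7 CPM, with exons that overlap *Wbscr25* on the other strand. *Cldn7* (chromosome 11, 69964779 to 69967886) was at 9.01, 143, 3.13 and 147 CPM. *Epcam* counts over *Cdh1* counts ran from 0.569 (0.505 to 0.641) in replicate 1 to 0.892 (0.863 to 0.921) in replicate 2, a narrow range beside that of *Fabp2* over *Fabp1*.

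The 4 transcription factors bind regulatory sequences of many enterocyte genes. *Hnf4a* (chromosome 2, 163506857 to 163572907), a nuclear receptor of gut and liver, was at 30.5, 267, 9.15 and 311 CPM in replicates 1 to 4. *Hnf4g* (chromosome 3, 3508030 to 3659800), its paralog in the intestine, was at 6.93, 81.8, 0.670 and 104 CPM. Both followed the keratins, with replicate 3 lowest. *Cdx2*, which specifies intestinal identity (chromosome 5, 147300900 to 147307249), was at 0.416, 9.58, 0 and 53.9 CPM. *Cdx1* (chromosome 18, 61018862 to 61036199) was at 0.139, 8.14, 7.37 and 40.9 CPM. *Cdx1* and *Cdx2* parted in replicate 3, which had 33 counts on *Cdx1* and 0 on *Cdx2*.

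**Figure D2:**
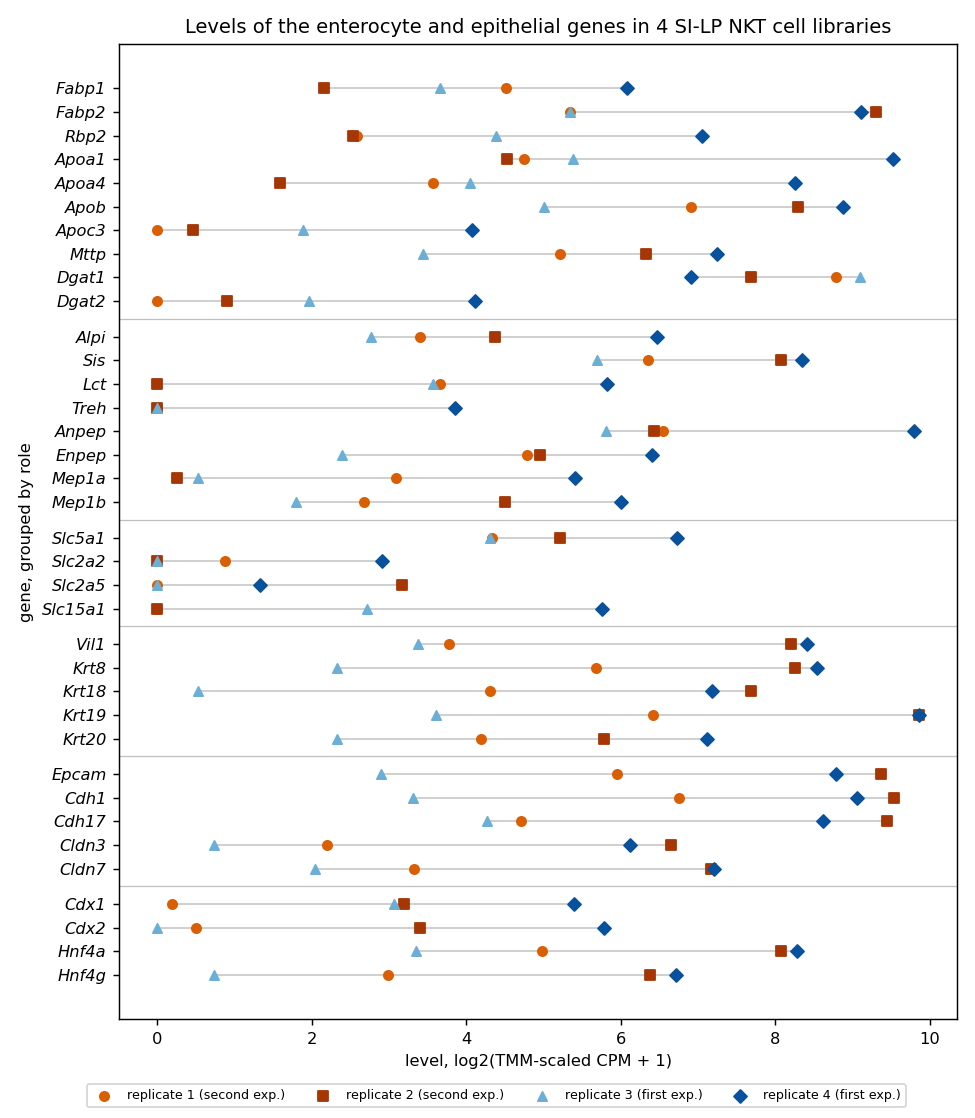
Levels of the 36 members, as log2(TMM-scaled CPM + 1), with 1 point per library and 1 line per gene, grouped by role. Replicate 4 is highest for 27 members, replicate 2 for 8 and replicate 3 for 1, *Dgat1*; replicate 3 is lowest for 21. Members at 0 counts lie at 0 on the axis.

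Differences within an experiment were measured as log2 CPM with a prior count of 2. Between replicates 4 and 3, 32 of the 33 members that passed the filter were higher in replicate 4 by more than 1 log2 unit, and 1 (*Dgat1*) was lower. Over the 11689 genes tested, 30.6% were higher and 19.3% lower by that measure. The median difference was 4.20 for the members and 0.08 for all genes. Between replicates 2 and 1, 22 members were higher in replicate 2 and 5 were lower (*Fabp1*, *Apoa4*, *Dgat1*, *Lct* and *Mep1a*), against 34.1% and 25.0% of all genes. The median difference was 1.72 for the members and 0.13 for all genes.

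By more than 1 log2 unit, 22 members were higher both in replicate 4 than in 3 and in replicate 2 than in 1, against 19.0% of all genes. They include the 14 cytoskeletal, adhesion and transcription factor members, *Fabp2*, *Apob*, *Mttp*, *Apoc3*, *Dgat2*, *Alpi*, *Sis* and *Mep1b*. *Apoc3* is among them by the prior count alone, since it had 0 counts in replicate 1 and 4 in replicate 2, less than the level of 3 counts in replicate 1 when scaled to library size. The 4 members *Fabp1*, *Apoa4*, *Lct* and *Mep1a* were higher in replicate 4 than in 3 and lower in replicate 2 than in 1, against 4.65% of all genes. All 4 belong to lipid handling or the brush border. In CPM, replicates 2 and 4 both exceeded replicates 1 and 3 for 22 of the 33 members that passed the filter, against 27.7% of all genes. Since the members were chosen for differences between replicates, these counts are given beside the background and nothing is read from them.

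**Figure D3:**
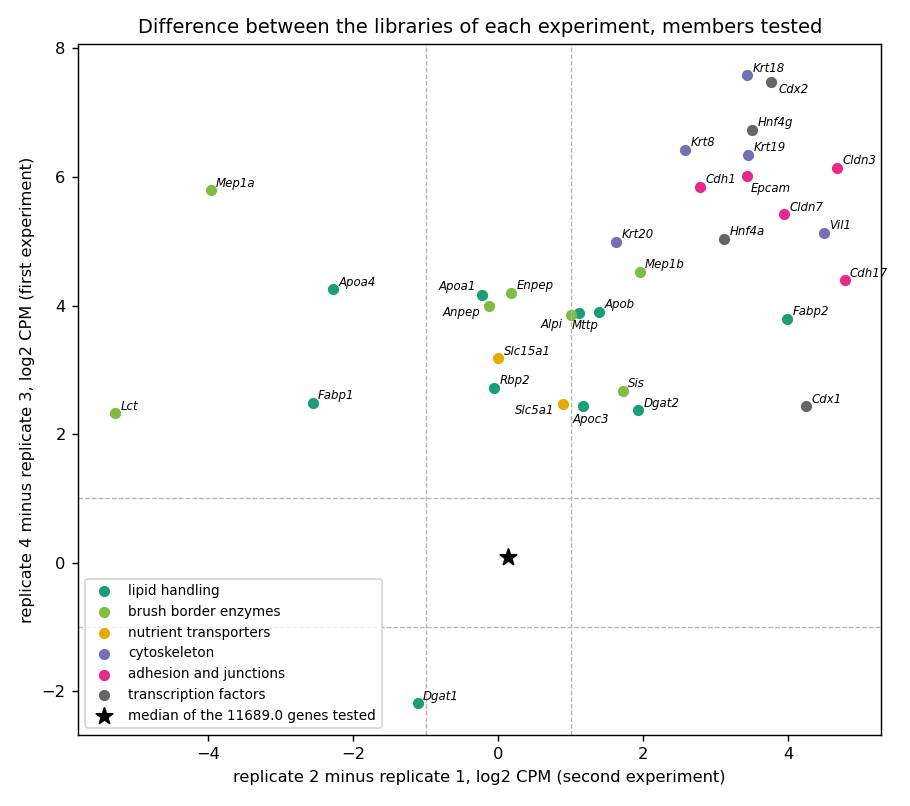
Log2 CPM difference between the libraries of the second experiment (horizontal) and of the first (vertical) for the 33 members that passed the filter, colored by role; dashed lines mark 1 log2 unit and the star the medians of all 11689 genes. Structural and transcription factor members lie at the upper right, *Fabp1*, *Apoa4*, *Lct* and *Mep1a* at the upper left, and *Dgat1* at the lower left.

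The experiment is the only labelled split of the libraries. The test of it sets the difference between experiments against the spread between libraries within an experiment. After Benjamini-Hochberg adjustment, edgeR's quasi-likelihood test passed 0 of 11689 genes (0%) and 0 of 33 members, and each member had an adjusted p of 1. At an unadjusted p under 0.05, 4 members passed, *Slc15a1*, *Rbp2*, *Apoa1* and *Apoa4*, against 248 genes (2.12%) in all. Each was lower in the second experiment, by edgeR log2 fold changes of -3.95 ± 1.16 (SE) for *Rbp2*, -4.02 ± 1.29 for *Apoa1* and -4.63 ± 1.57 for *Apoa4*. Without replicate 4 these log2 fold changes were smaller, at -2.01, -0.76 and -1.28, with replicate 3 alone for the first experiment. *Slc15a1* had 0 counts in both libraries of the second experiment, and it passed the filter only through the first, where it is high, so its p is conditioned on that difference. DESeq2 called 41 genes, among them *Slc15a1* with a Benjamini-Hochberg adjusted p of 0.00251, and edgeR without a filter called 60, among them *Apoa4*, *Slc15a1* and *Apoa1*.

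Both libraries of the first experiment lay above both of the second for 6 of the 33 members that passed the filter, *Rbp2*, *Apoa1*, *Apoa4*, *Apoc3*, *Dgat2* and *Slc15a1*, against 14.4% of all genes tested. Of these 6, 3 (*Apoc3*, *Dgat2* and *Slc15a1*) passed the filter only through the first experiment, where they are high, so they had to differ and nothing is read from the count. With 2 libraries against 2, the smallest p that a two-sided exact permutation test allows is 0.333. The median edgeR log2 fold change, second minus first experiment, was -0.08 for the cytoskeleton, 0.65 for adhesion, -1.33 for transcription factors, -1.67 for brush border enzymes, -2.79 for lipid handling and -5.87 for the 2 transporters tested (*Slc5a1* and *Slc15a1*), against 0.03 for all genes. *Apoc3* and *Dgat2* enter the median for lipid handling and *Slc15a1* that for transporters, so nothing is read from either. Without replicate 4, 13 members passed at an unadjusted p under 0.05, *Fabp2*, *Apob*, *Vil1*, *Krt8*, *Krt18*, *Krt19*, *Epcam*, *Cdh1*, *Cdh17*, *Cldn3*, *Cldn7*, *Hnf4a* and *Hnf4g*, each higher in the second experiment, and 0 after adjustment. In that fit 470 of 10414 genes passed unadjusted, and the lone replicate 3 is assumed to vary like the second experiment.

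The make-up of the members' RNA was compared within each library, apart from its summed level. Lipid handling held 59.3%, 28.0%, 86.0% and 45.9% of the members' TPM in replicates 1 to 4. The cytoskeleton held 18.4%, 36.6%, 3.06% and 26.5%, and adhesion 11.3%, 29.0%, 2.59% and 14.0%. Brush border enzymes ranged from 3.10% in replicate 2 to 9.35% in replicate 4, transporters from 0.393% to 1.30%, and transcription factors from 1.25% to 3.25%. Of the members' TPM, replicate 2 thus held the largest structural share and replicate 3 the largest lipid-handling share. Of all counts, lipid handling took 0.0698%, 0.151%, 0.0587% and 0.262% in replicates 1 to 4, lowest in replicate 3.

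A single gene weighed on these shares. *Dgat1* held 36.8% of the members' TPM in replicate 1, 3.53% in replicate 2, 55.8% in replicate 3 and 1.43% in replicate 4. Without it, lipid handling held 35.6%, 25.4%, 68.3% and 45.1%, so replicate 3 was still highest and replicate 2 lowest. The leading member was *Dgat1* in replicates 1 and 3, *Krt19* with 22.0% in replicate 2 and *Apoa1* with 17.2% in replicate 4. *Apoa1* ranked 17 of 36 in replicate 2. Over the 36 members, Spearman correlations of length-scaled levels were 0.85 between replicates 1 and 4, 0.76 between 2 and 4, and 0.41 between 2 and 3. Over the 11689 genes tested, those pairs gave 0.67, 0.74 and 0.64. The members gave 0.75 between replicates 1 and 2, 0.71 between 3 and 4, and 0.68 between 1 and 3. All genes gave 0.66, 0.70 and 0.82 there. These are descriptions across genes, which share library and depth.

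**Figure D4:**
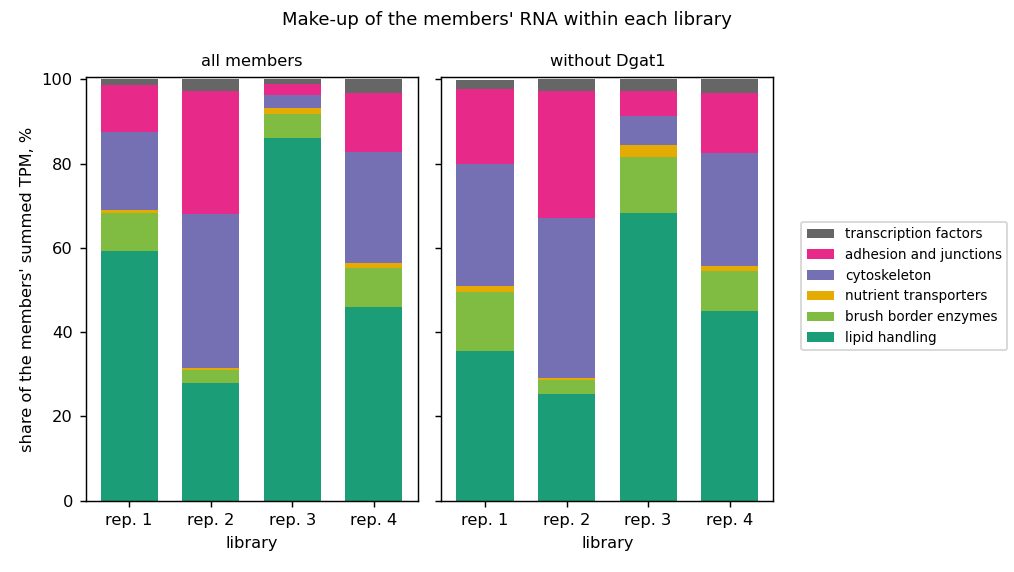
Share of the members' summed TPM (%) held by each role in each library, with all 36 members at left and without *Dgat1* at right; bars start at 0. Lipid handling is largest in replicate 3 and smallest in replicate 2 in both panels, and cytoskeleton and adhesion are largest in replicate 2.

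Ratios within a library were chosen after values were seen. Counts of the 21 absorptive members other than *Dgat1* over those of the 10 structural members were 1.31 (95% exact interval 1.25 to 1.38), 0.369 (0.362 to 0.376), 4.93 (4.35 to 5.60) and 1.19 (1.16 to 1.22) in replicates 1 to 4. Replicates 2 and 4, which held similar member shares, thus differed in this balance beyond counting error. Counts of *Apoa1* and *Apoa4* over *Epcam* were 0.602 (0.515 to 0.703), 0.0364 (0.0319 to 0.0413), 8.69 (5.90 to 13.2) and 2.36 (2.23 to 2.49), with replicate 2 lowest again.

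Other epithelial cell types kept no fixed proportion to the members. Counts of the 35 members without *Dgat1* over 13 Paneth cell markers were 2.55 (2.44 to 2.67), 10.7 (10.5 to 11), 22.5 (18.0 to 28.4) and 0.223 (0.220 to 0.226), so in replicate 4 Paneth counts exceeded those of the members. Paneth lysozyme *Lyz1* alone was at 21151 CPM there and at 10.5 CPM in replicate 3, where 7 of the 13 Paneth markers had 0 counts. Over 8 markers of mucus-secreting goblet cells the ratio was 2.28 (2.19 to 2.38), 0.606 (0.600 to 0.612), 3.15 (2.86 to 3.46) and 1.36 (1.34 to 1.39), so in replicate 2 goblet counts exceeded those of the members. Over 10 crypt stem cell markers the ratio was 4.60 (4.34 to 4.87), 4.41 (4.33 to 4.49), 3.22 (2.93 to 3.54) and 5.25 (5.11 to 5.40). In replicate 3, *Znrf3* and *Axin2* held 320 and 105 of the 573 stem cell marker counts. Without these 2 genes the ratio was 8.54 (7.93 to 9.20), 5.06 (4.96 to 5.16), 12.5 (10.5 to 14.8) and 5.90 (5.73 to 6.07), so replicate 3 turned from lowest to highest.

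**Figure D5:**
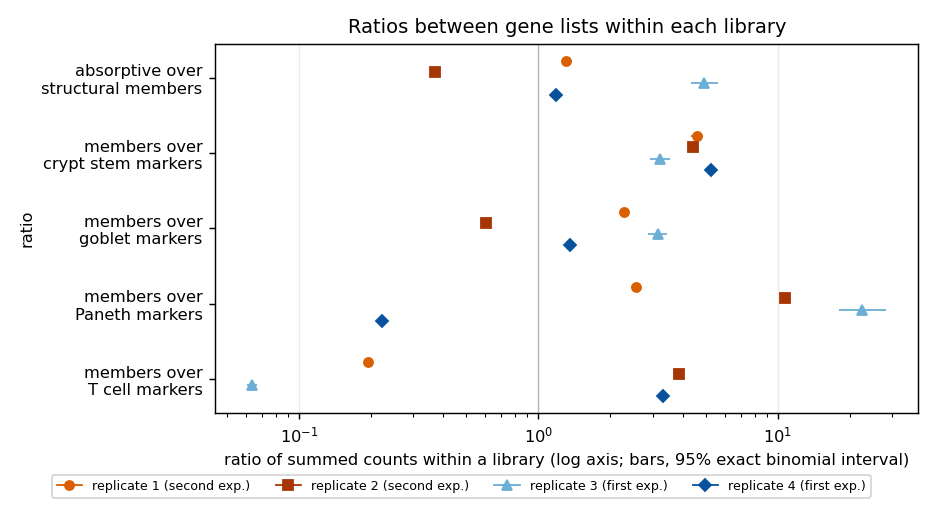
Ratios of summed counts within each library (log axis), with 1 point per library and 95% exact binomial intervals. The members over crypt stem markers, *Znrf3* and *Axin2* included, lie between 3.22 and 5.25, whereas the ratio to Paneth markers runs from 0.223 in replicate 4 to 22.5 in replicate 3.

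Other enterocyte genes were listed by function, with earlier results of these data known. More than 1 log2 unit higher in replicate 4 than in 3 and in replicate 2 than in 1 were 15 of 16 other junction genes tested, 12 of 14 microvillus genes, 12 of 15 epithelial transcription factors, 8 of 12 enzymes, 8 of 14 transporters and 8 of 16 lipid genes, against 19.0% of all genes. With edgeR, 0 of the 87 genes tested in these lists passed between experiments, and 1 at an unadjusted p under 0.05, the peptidase gene *Ace* at 3.74, 0.192, 9.60 and 108 CPM in replicates 1 to 4. Without a filter *Fabp6*, the bile acid-binding protein of the ileum, was called. *Fabp6* was at 7.62, 16.5, 0 and 529.7 CPM, against 39.5, 630.3, 39.5 and 550.5 CPM for *Fabp2*, so replicate 2 held much *Fabp2* and little *Fabp6*.

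The leading genes of these lists by mean TPM were then read by library. Among junction genes, *F11r* was at 32.8, 134, 3.35 and 157 CPM in replicates 1 to 4, *Cldn2* at 0.670 CPM in replicate 3 and 109 in replicate 2, and *Cldn15* at 9.38 and 145. Among microvillus genes, the surface mucin *Muc13* was at 67.2, 843, 10.5 and 450.4 CPM and *Prap1* at 0.277, 90.6, 2.23 and 139.8, whereas *Ezr*, the membrane linker ezrin that lymphocytes also make, was at 311, 193, 249.8 and 224. Among enzymes, *Adh1* was highest in replicate 2 at 201 CPM, and *Naaladl1* in replicate 4 at 330.2. Among transporters, *Slc7a7* ran from 7.37 to 40.1 CPM, *Slc26a3* from 0.893 to 43.7 and *S100g* from 0.139 to 7.18. The lipid genes *Acsl5* and *Sar1b*, which act in many tissues, ran from 76.8 to 138 and from 39.7 to 111 CPM. The epithelial factors *Klf4*, *Klf5* and *Elf3* were lowest in replicate 3, at 32.4, 5.58 and 3.13 CPM.

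Genes along the villus gave mixed values. Counts on 9 villus tip genes, *Apoa4* among them, took 0.0729%, 0.0685%, 0.0691% and 0.0862% of replicates 1 to 4, a spread of 1.26-fold. In replicates 1 to 3 most of these counts fell on 1 gene, *Ifrd1*, a regulator made in many cell types, which held 74.7%, 57.6% and 72.7% of them there and 29.9% in replicate 4. Without *Ifrd1* the other 8 genes took 0.0184%, 0.0290%, 0.0189% and 0.0604%, a spread of 3.28-fold, with replicate 4 highest. Counts on 6 antimicrobial genes of the lower villus took 0.0753%, 0.267%, 0.00270% and 0.208%, in the order of the structural members in replicates 3, 1, 4 and 2. Markers of plasma and B cells took 0.647% of replicate 1, 0.833% of replicate 2, 0.0111% of replicate 3 and 0.0342% of replicate 4, so they followed the experiment. Myeloid markers stayed at or below 0.0170% and stromal and endothelial markers at or below 0.0194%. Enteroendocrine and tuft cell markers took 0.0389% of replicate 4, where *Gip* held 1001 of their 1512 counts. In replicate 3 they had 3 counts, all on *Pou2f3*, which could not be told from 0. *Cd8a*, *Cd8b1* and *Itgae* together stayed at or below 0.000607%. The part of these cells in the members' levels was not tested.

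By level, 14 of the 33 members that passed the filter ranked in the top 10% of the 11689 genes by mean TPM (8 without replicate 4), and 25 above the median. Counts above 3 were found for 29, 31, 28 and 36 members in replicates 1 to 4. In the library with the lowest share, replicate 3, 4 members had 0 counts, *Treh*, *Slc2a2*, *Slc2a5* and *Cdx2*. The 23 members with more than 3 counts in each library hold *Fabp2*, *Sis*, *Krt19*, *Epcam* and *Hnf4a*, and the 8 with 0 counts in some library are *Apoc3*, *Dgat2*, *Lct*, *Treh*, *Slc2a2*, *Slc2a5*, *Slc15a1* and *Cdx2*.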

How the data were processed

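RNA-seq measured 4 libraries of 1 condition. The authors deposited raw counts per gene, made per the methods with HISAT2 and per the file headers with featureCounts 1.6.4 on exons of RefSeq genes, without a strand setting. The methods name GRCm39, but the deposited positions are those of GRCm38, used here. The methods and labels name different sequencers. The gene lengths the authors deposited, which are no measurement, gave TPM. The table has 2 further library columns that match no label, and they were not used.

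Counts were scaled with TMM factors (edgeR 4.0.16, R 4.3.3). The 11689 genes with 10 or more counts in 2 or more libraries entered edgeR's quasi-likelihood test of the experiment, with p adjusted by Benjamini-Hochberg. All libraries are replicates of 1 condition, and differences between them may be technical. The script was tested on simulated data. Totals of 3882803 to 8732858 counts limit precision, as the intervals show. Ratios of CPM carry exact binomial intervals. Alternatives were DESeq2 1.42.0, other scalings, filters, prior counts and units, and leaving out replicates. DESeq2 is also named in the study's methods.

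Members and lists were chosen with earlier results of these data known. All 36 members are named, with the 3 genes of highest mean TPM in each list of other enterocyte genes, except 1 that is not reported here; of marker lists of other cells, genes are named where a result turns on them, and *Znrf3*, *Axin2*, *Ifrd1* and *Ace* were picked after their values were seen. Python 3.11.15, pandas 2.3.3 and scipy 1.17.1 were used.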

Additional observations from a re-analysis of the deposited data

Results flagged for a closer look

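In 10 of 62 results examined, replicate 4 lay far from the other 3 libraries by Dixon's criterion, and 9 of the 10 are members. Chance flags about 1 in 20 groups, but that rate does not apply to members chosen because they differ between replicates, so their values are a description. Replicate 4 was the high one in each. *Apoa1* was at 734 CPM in replicate 4 and at 22.0 to 40.6 CPM in the others, and *Apoa4* at 304 CPM against 2.01 to 15.6. *Anpep* was at 889 CPM against 55.1 to 92.6, *Rbp2* at 132 CPM against 4.79 to 19.9 and *Alpi* at 87.6 CPM against 5.80 to 19.6. *Slc15a1* was at 53.2 CPM against 0 to 5.58, *Apoc3* at 15.8 CPM against 0 to 2.68, *Treh* at 13.5 CPM against 0 and *Slc2a2* at 6.52 CPM against 0 to 0.831. Markers of Paneth cells took 3.76% of the counts of replicate 4, against 0.00149% to 0.0670%.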

How the results depend on the processing

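No paired analysis was possible because the 4 libraries form 1 group and the experiments share no replicate number. Members called between experiments rose from 0 to 3 of 36 with edgeR and no filter on low counts (60 of 16223 genes called) and to 1 of 33 with DESeq2 (41 of 11689); other enterocyte and epithelial genes called rose from 0 to 1 without the filter, and the causes were not tested. In the other settings 0 members were called, with 7 genes called without replicate 3 and 6 without replicate 4; without replicate 4, 14 of 28 members kept their direction. Brush border enzymes held a mean of 6.79% of the members' TPM, 14.0% of their counts and 9.98% without *Dgat1*, transporters 0.902%, 1.67% and 1.44%, and transcription factors 2.19% and 4.15% of counts; gene length enters the first and not the second. Members in the top 10% by mean TPM numbered 14, 9 among genes with at least 10 counts in each library, and 8 to 16 leaving out 1 library, with 8 without replicate 4 and 10 without replicate 2. The mean share of counts on the members ran from 0.320% without replicate 4 to 0.577% without replicate 3. With *Rn45s* left out of the totals, the shares in replicates 1 to 4 were 0.156%, 0.803%, 0.109% and 1.08%. With it they were 0.138%, 0.744%, 0.0781% and 0.850%, so the levels moved beyond the counting intervals and the order of the libraries stayed. Library size alone shifted the median of all genes by 0.33 and 0.26 log2 units in the first and second experiment, and 32 and 24 of 33 members lay above that median under each of the 3 scalings. Leaving out *Dgat1*, *Ifrd1* or *Znrf3* with *Axin2* and setting members at 0 to their bound were chosen after seeing the data. At these depths, members at 3 counts or fewer could not be told from 0.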
